A study of Mus musculus with 6 samples.

Results

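Mucin-type O-glycosylation begins when a polypeptide GalNAc-transferase (GalNAc-T) attaches N-acetylgalactosamine to a serine or threonine of a protein passing through the Golgi. The mouse genes for these enzymes carry the symbol Galnt. The 10 genes described here, Galnt1, Galnt2, Galnt3, Galnt4, Galnt6, Galnt7, Galnt10, Galnt11, Galnt12 and Galnt16, were taken by symbol from a count table of 27179 genes. That table held 19 genes with a Galnt or Galntl symbol, so these 10 are a subset, and they were selected on fold changes and levels of these same libraries, in the comparison of CD34- with CD34+ CAFs. All 10 had enough counts to be tested among the 14855 genes that passed the filter on low counts.

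The 6 RNA-seq libraries came from cancer-associated fibroblasts (CAFs) of 3 raGFP-Wnt1 mammary tumors. In this line the MMTV promoter drives a Wnt1 transgene in mammary epithelium (FVB/NJ background), and mice also carry 1 Pdgfra H2B-GFP knock-in allele (C57BL/6 background), so that nuclei of cells with active Pdgfra are green. GFP+ cells of each tumor were sorted into a CD34- and a CD34+ fraction, which gave 3 libraries per group, and both groups therefore share the transgene, the reporter allele and the tumors. The series title names the fractions CD34-low and CD34-high, and the labels name no treatment. The age of the mice is not given in the sources used here. Libraries are named by tumor number, 1 to 3.

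GalNAc-Ts differ in the proteins they accept. Some start on bare peptide, while others prefer a peptide that already carries a GalNAc and fill in the sites around it. The GalNAc they add, the Tn antigen, is then extended by C1GALT1 to the core 1 structure, branched by GCNT enzymes to core 2, or capped with sialic acid. CD34, the protein used for the sort, is itself a sialomucin with a heavily O-glycosylated extracellular part.

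Library totals ran from 16238059 counts (CD34+, tumor 1) to 86609267 counts (CD34+, tumor 2). Levels are given as CPM, the count of a gene divided by the library total and expressed per 1000000 counts, after correction of each total with its TMM factor (trimmed mean of M-values). The sorted marker Cd34 was measured at 79.2, 42.0 and 102 CPM in the CD34- libraries of tumors 1, 2 and 3 and at 678, 563 and 1605 CPM in the CD34+ libraries, so no library went against its label. The 7 fibroblast markers summed to between 69600 and 95600 CPM per library, and the 7 immune markers to at most 22.5 CPM (sums of markers are scaled by the library total alone). Most of the fibroblast sum came from Col1a1, Col1a2 and Col3a1. Of the 7 fibroblast markers, 3 were higher in CD34- in all 3 tumors and 4 were lower. Pdgfrb was at 735, 670 and 660 CPM in CD34- and 450, 400 and 254 CPM in CD34+ libraries. Dcn was at 4142, 1731 and 2895 CPM against 8533, 3565 and 6996 CPM. The CD34- library of tumor 3 correlated with the others at 0.863 to 0.905 (log2 CPM across genes), against 0.895 to 0.965 among the other 5. It had counts for 14314 genes, from a total of 35310817 counts. The other libraries had counts for 16253 to 19220 genes, with 16707 in the smallest (CD34+, tumor 1). Values without the CD34- library of tumor 3 are given for Galnt3, Galnt4, Galnt7 and Galnt16.

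Galnt16 and Galnt10 were the members with the clearest separation of the fractions, in opposite directions. Galnt16 lies on chromosome 12 (GRCm38.p6, 80518471 to 80603898, plus strand) with 15 coding exons and 1674 coding bases. Galnt10 lies on chromosome 11 (57645442 to 57787514, plus strand) with 12 coding exons and 1809 coding bases. The others lie on chromosomes 18 (Galnt1), 8 (Galnt2 and Galnt7), 2 (Galnt3), 10 (Galnt4), 15 (Galnt6), 5 (Galnt11) and 4 (Galnt12). Promoter windows from RefSeq, from 250 bases before to 50 bases after a transcript start, were kept for 6 of the 10 members. Windows of part of the genome were left out before the members were matched. A member without a window here may therefore have one in RefSeq. A pair of separate windows of Galnt16 and the window of Galnt10 are given because the results turn on these genes. Both strands were searched for the TATA box (TATAAA), the GC box (GGGCGG), the CCAAT box (the letters CCAAT), the E-box (CACGTG), the AP-1 motif (TGACTCA) and the TCF/LEF motif (CTTTGAT), and capitals mark the matches:
Galnt16, chr12:80518221-80518520, plus strand: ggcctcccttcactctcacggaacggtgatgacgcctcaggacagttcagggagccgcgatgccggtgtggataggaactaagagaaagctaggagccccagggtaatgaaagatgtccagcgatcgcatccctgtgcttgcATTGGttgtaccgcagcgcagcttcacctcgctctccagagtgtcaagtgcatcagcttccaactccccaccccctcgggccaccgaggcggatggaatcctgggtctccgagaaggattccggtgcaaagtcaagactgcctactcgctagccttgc
Galnt16, chr12:80518552-80518851, plus strand: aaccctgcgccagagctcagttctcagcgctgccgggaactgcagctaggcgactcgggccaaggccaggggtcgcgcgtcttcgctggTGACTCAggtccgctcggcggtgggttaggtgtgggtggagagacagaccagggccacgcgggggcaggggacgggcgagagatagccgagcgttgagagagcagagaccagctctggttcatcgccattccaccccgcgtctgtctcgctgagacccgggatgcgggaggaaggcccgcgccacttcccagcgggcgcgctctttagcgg
Galnt10, chr11:57645192-57645491, plus strand: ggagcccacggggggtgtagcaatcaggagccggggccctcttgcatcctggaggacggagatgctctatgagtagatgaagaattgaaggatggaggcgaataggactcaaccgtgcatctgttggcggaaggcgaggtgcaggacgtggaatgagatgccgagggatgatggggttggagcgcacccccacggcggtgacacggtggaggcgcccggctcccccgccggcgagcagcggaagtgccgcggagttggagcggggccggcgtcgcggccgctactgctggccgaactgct
The capitals in the first Galnt16 window are CCAAT on the opposite strand, a motif found in 37.4% of the 32851 promoter windows kept. These are called all windows below, although they do not cover every chromosome. Those in the second are TGACTCA, the AP-1 motif, found in 5.2% of all windows. The remaining Galnt16 window, which overlaps the second, held no match, and neither did the Galnt10 window. The GC content of the windows shown was 58.7%, 68.0% and 66.0%, against a median of 52.7% over all windows. Their ratios of observed to expected CpG were 0.660, 0.877 and 0.911, against a median of 0.384. The other members with windows were Galnt3, Galnt6, Galnt7 and Galnt11. The GC box GGGCGG was held by Galnt3 (3 matches), Galnt7 (2 matches), 1 of 2 Galnt6 windows (3 matches) and 1 of 2 Galnt11 windows (2 matches). That motif was found in 35.7% of all windows.

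In the fit across all genes (limma-voom, Benjamini-Hochberg adjusted p under 0.05, without a term for the tumor), 1 of the 10 members was called, Galnt16, lower in CD34- CAFs. The background was 0.121% of all genes tested, with 0.101% called lower and 0.0202% higher. With the tumor as a block, which compares the fractions within each tumor, 2 members were called, Galnt16 lower and Galnt10 higher, against a background of 8.57%, with 4.25% lower and 4.32% higher. The groups did not overlap for 3 members (Galnt3, Galnt10 and Galnt16), against 20.4% of all genes. CD34- libraries were all above CD34+ libraries for 10.4% of genes (here Galnt10) and all below for 10.0% (here Galnt3 and Galnt16). Moving the same way in all 3 tumors were 5 members, against 45.9% of all genes, with 2 higher (Galnt2 and Galnt10) against 22.9% and 3 lower (Galnt3, Galnt12 and Galnt16) against 23.1%. Since the members were chosen with this contrast known, these counts describe them and carry no test. The median log2 fold change of the members, CD34- over CD34+, was -0.134 (-0.143 with the block), beside -0.0278 (-0.00994) over all genes tested. A positive value is a higher level in CD34- CAFs throughout.

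**Figure D1:**
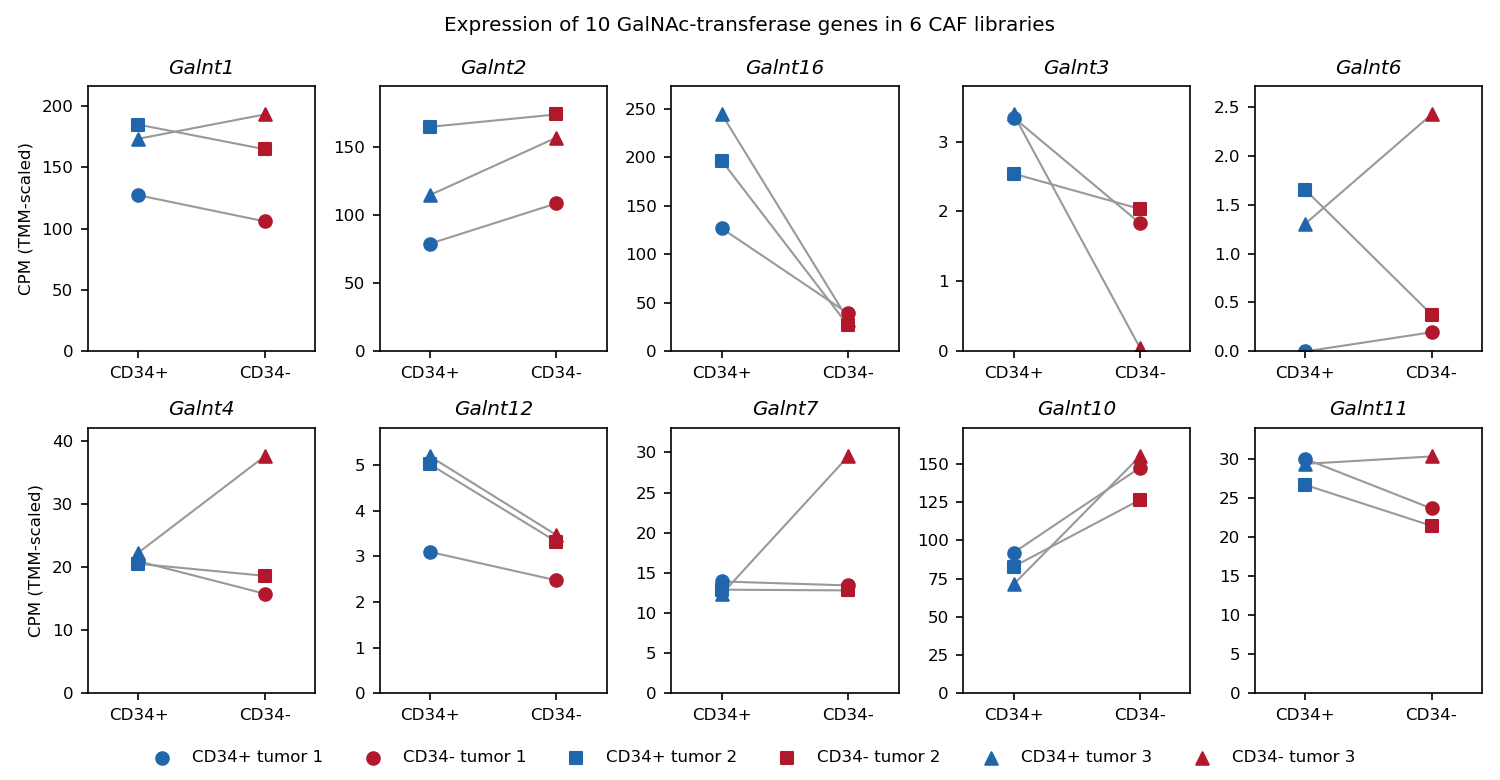
CPM (linear axis from 0, scaled by TMM) of each member in the CD34+ (blue) and CD34- (red) library of tumors 1 (circle), 2 (square) and 3 (triangle), with a grey line joining the fractions of a tumor. Galnt16 falls from between 127 and 244 CPM to between 26.8 and 39.2 CPM, Galnt10 rises in each tumor, and Galnt4 and Galnt7 are high in the CD34- library of tumor 3 alone.

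Galnt16 belongs to the same subfamily of GalNAc-Ts as Galnt2. It was at 39.2, 26.8 and 32.8 CPM in the CD34- libraries of tumors 1, 2 and 3, and at 127, 196 and 244 CPM in the CD34+ libraries. Every CD34+ library was above every CD34- library, with the least difference in tumor 1. The CD34+ level was 3.23, 7.31 and 7.45 times the CD34- level within the tumors. The fitted log2 fold change was -2.47 ± 0.28 (SE, n = 3 per group; 95% interval -3.10 to -1.85), a 5.56-fold lower level, and -2.49 ± 0.23 with the block. It was called in all 10 fits without the block and all 4 with it that used the 6 libraries, and in all 3 block fits that left out a tumor (-2.88 to -2.30). Without the block, leaving out CD34- library 2 (-2.34) or 3 (-2.47), CD34+ library 2 (-2.43) or 3 (-2.26), or the whole of tumor 2 (-2.29) or 3 (-2.26) ended the call, while the value stayed within -2.89 to -2.26 over the 9 fits. In bulk libraries, fewer cells that express a gene and less of its RNA per cell cannot be told apart.

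Markers of other cells moved with the fractions in part. The 6 endothelial markers summed to 10.7 to 29.0 CPM (scaled by library total) in CD34- and to 54.5 to 128 CPM in CD34+ libraries. Tek, the angiopoietin receptor, was the most abundant of them, at 13.4, 6.53 and 5.45 CPM in CD34- and 65.6, 48.8 and 116 CPM in CD34+ libraries. Kdr, a VEGF receptor, was lower in the CD34- fraction of all 3 tumors, at 4.49, 1.84 and 4.21 CPM against 12.6, 3.84 and 5.12 CPM. Pecam1, at most 12.9 CPM, was lower in tumors 1 and 3 and higher in tumor 2. Cdh5 reached at most 4.18 CPM, Tie1 1.91 CPM and Cldn5 0.908 CPM, each at 0 in at least 1 library. Cdh5 was higher in CD34- in all 3 tumors, at 4.18, 1.51 and 0.220 CPM against 1.61, 0.644 and 0 CPM. Tie1 and Cldn5 were higher in CD34- in tumors 1 and 2. Most of the endothelial sum in the CD34+ libraries came from Tek. The 5 pericyte markers summed to 156 to 199 CPM in CD34- and 77.2 to 171 CPM in CD34+ libraries and split in direction. Cspg4 (the NG2 proteoglycan), Notch3 and Rgs5 were higher in CD34- in all 3 tumors, Cspg4 at 90.2, 129 and 84.5 CPM against 44.0, 37.6 and 12.9 CPM. Kcnj8 and Abcc9, subunits of a potassium channel, were lower in all 3, Abcc9 at 13, 7.60 and 28.3 CPM against 87.8, 15.3 and 60.7 CPM. The 9 epithelial markers summed to 183, 168 and 65.7 CPM in CD34- and 160, 109 and 23.0 CPM in CD34+ libraries, higher in CD34- in each tumor, as were 7 of the 9 genes, although none was called with or without the block. The sums of immune markers (16.5 to 21.2 against 9.05 to 22.5 CPM) overlapped between the groups. Of the 7 genes, 4 were higher in CD34- in all 3 tumors and 1, Cd3e, was lower. Lyz2 did not overlap, at 6.73, 6.02 and 8.83 CPM in CD34- against 1.8, 4.48 and 2.58 CPM. No immune marker was called with or without the block. The part of these cells in the values of Galnt16 and Galnt10 was not tested.

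Galnt2, the close relative of Galnt16, is expressed in most tissues and accepts many peptides. It was at 109, 174 and 157 CPM in the CD34- libraries and at 79.1, 165 and 115 CPM in the CD34+ libraries. The groups overlapped, although the CD34- library was the higher in every tumor. Its log2 fold change was 0.33 ± 0.29 (95% interval -0.33 to 1.00), and 0.32 ± 0.14 with the block, not called in either fit. The fitted values of the subfamily pair thus had opposite signs, but only that of Galnt16 was called. The difference of Galnt2 was less than its spread between libraries, but that spread includes the differences between tumors. With the block, the 95% interval of Galnt2 was 0.0053 to 0.626, on 1 side of 0, at a limma-voom adjusted p of 0.207.

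Galnt1, the other broadly expressed starter enzyme, did not separate the fractions. It was at 106, 165 and 193 CPM in the CD34- libraries and at 127, 185 and 173 CPM in the CD34+ libraries. The log2 fold change was -0.08 ± 0.26 (95% interval -0.66 to 0.51), lower in 2 tumors and higher in 1. The tumors differed more than the fractions, with tumor 1 lowest in both.

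Galnt10 and Galnt7 are the follow-up enzymes, which prefer peptides that already carry a GalNAc. Galnt10 was at 147, 126 and 155 CPM in the CD34- libraries and at 91.9, 82.9 and 71.3 CPM in the CD34+ libraries. The groups did not overlap. The CD34- level was 1.60, 1.53 and 2.17 times the CD34+ level within tumors 1, 2 and 3, and the log2 fold change was 0.81 ± 0.18 (95% interval 0.41 to 1.21), a 1.76-fold higher level, and 0.80 ± 0.15 with the block. Without the block it was called by DESeq2 alone of the 10 fits to all libraries and in 0 of 9 fits with libraries left out (0.628 to 0.905). With the block it was called by limma-voom, edgeR and DESeq2, after thinning counts to the smallest library total, and in all 3 fits that left out a tumor (0.629 to 0.900). The long noncoding gene 4933424L21Rik overlaps the start of Galnt10 and has no row under that symbol, and whether the counting used strand is not given in the sources used here.

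Galnt7 was at 13.4, 12.8 and 29.5 CPM in the CD34- libraries and at 13.9, 12.9 and 12.4 CPM in the CD34+ libraries. Its difference rested on 1 library, the CD34- library of tumor 3. The log2 fold change was 0.36 ± 0.35 with that library and 0.02 without it.

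Galnt4 and Galnt12 form a further subfamily. Galnt4, which acts on glycopeptides including that of the selectin ligand PSGL-1, is encoded by 1 exon inside Poc1b, and the neighbours had 5815 and 3695 counts over the 6 libraries. It was at 15.8, 18.6 and 37.5 CPM in the CD34- libraries and at 20.9, 20.5 and 22.3 CPM in the CD34+ libraries. As for Galnt7, the CD34- library of tumor 3 stood apart. The log2 fold change was 0.03 ± 0.33 with it and -0.31 without it. Galnt12, known for its expression in the colon, was at 2.48, 3.32 and 3.47 CPM in the CD34- libraries and at 3.10, 5.01 and 5.19 CPM in the CD34+ libraries. It was lower in the CD34- fraction of each tumor, but the groups overlapped and the log2 fold change of -0.66 ± 0.39 (95% interval -1.55 to 0.22) was not called.

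Galnt3, which glycosylates and so protects the phosphate hormone FGF23, and its relative Galnt6, which acts on fibronectin, were low. Galnt3 was at 1.83, 2.04 and 0.0550 CPM in the CD34- libraries, the last from 2 counts, and at 3.34, 2.54 and 3.39 CPM in the CD34+ libraries. The groups did not overlap. Its log2 fold change of -1.88 ± 1.04 (-1.07 ± 0.79 with the block) was -0.57 without the CD34- library of tumor 3, and it was not called in any fit. Galnt6 was at 0.196, 0.376 and 2.42 CPM in the CD34- libraries and at 0, 1.65 and 1.31 CPM in the CD34+ libraries, where the 0 counts of tumor 1 allow up to 0.186 CPM (3 counts, counting error only). The sign of its change, -0.63 ± 1.52 and -0.30 ± 0.94 with the block, depended on the library left out and on the tool.

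Galnt11, which glycosylates the LDL receptor family and Notch1, held a steady level. It was at 23.7, 21.5 and 30.3 CPM in the CD34- libraries and at 30.0, 26.7 and 29.4 CPM in the CD34+ libraries. The groups overlapped, with the CD34- library the lower in tumors 1 and 2 only. The log2 fold change was -0.19 ± 0.20 (95% interval -0.65 to 0.27). Over all 25 alternative fits, including those with a library or a tumor left out, it lay between -0.338 and -0.0952 and was called in 0.

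**Figure D2:**
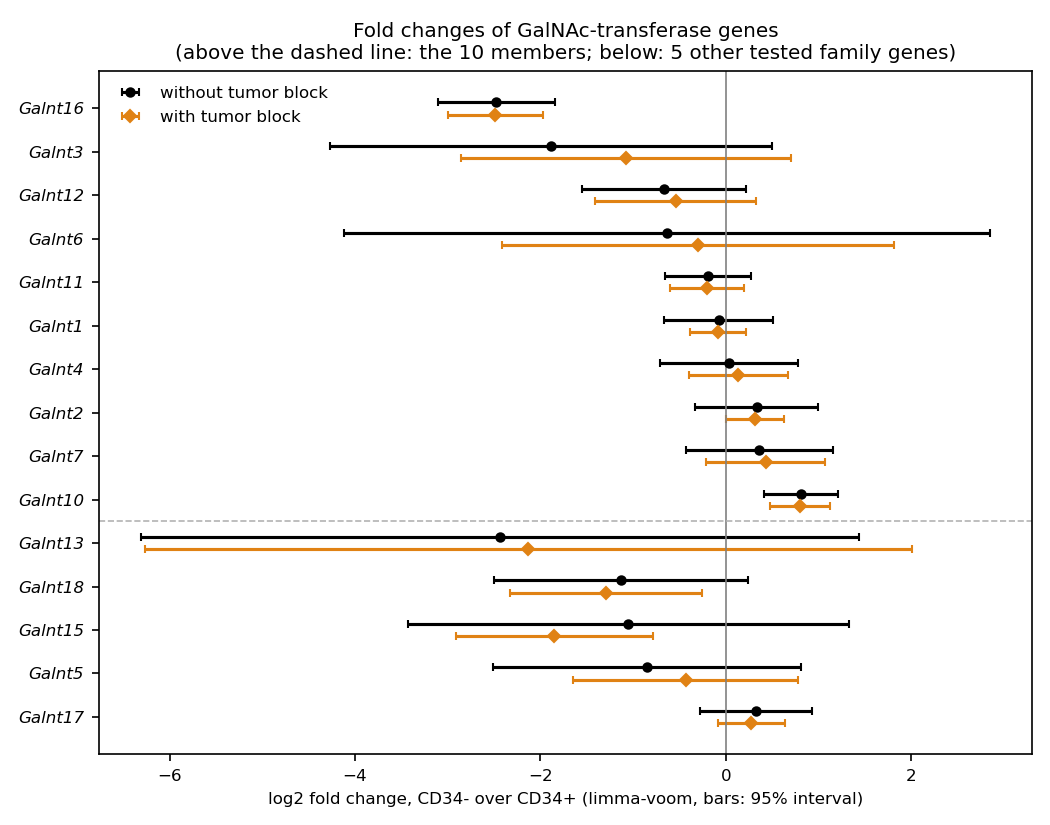
Log2 fold change, CD34- over CD34+ (positive: higher in CD34-), of the 10 members and, below the dashed line, of 5 further tested Galnt genes, with 95% intervals from limma-voom without (black circles) and with (orange diamonds) the tumor block. Among the members, the intervals of Galnt16 and Galnt10 lie on 1 side of 0 in both fits, while those of Galnt3 and Galnt6 are wide.

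To compare levels between genes, CPM was divided by the gene length in the table, giving CPM per kilobase. In CD34- CAFs, Galnt1 (38.0 ± 10.9, SD, n = 3), Galnt2 (35.6 ± 8.25) and Galnt10 (30.4 ± 3.13) led, and their ranges overlapped. They lay apart from Galnt11 (9.90 ± 1.82), Galnt16 (8.40 ± 1.57), Galnt4 (4.69 ± 2.31) and Galnt7 (4.11 ± 2.09), each of which overlapped the next. Galnt12 (1.39 ± 0.242), Galnt3 (0.355 ± 0.296) and Galnt6 (0.173 ± 0.214) were lowest. In CD34+ CAFs the first place went to Galnt16 (48.2 ± 15.1 CPM per kilobase), followed by Galnt1 (39.8 ± 7.50), Galnt2 (29.1 ± 10.5) and Galnt10 (17.4 ± 2.2), each overlapping the next in range. Apart from Galnt16, the order below them was the same as in CD34- CAFs, from Galnt11 (11.3 ± 0.696) to Galnt6 (0.171 ± 0.151), with ranges apart at each step. Galnt16 was thus at rank 5 of 10 in CD34- and at rank 1 in CD34+ CAFs.

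The summed level of the 19 Galnt genes overlapped between the groups, at 156 ± 20.6 CPM per kilobase in CD34- and 179 ± 22.4 in CD34+ libraries, although within each tumor it was lower in CD34- (139, 150 and 179 against 153, 192 and 192). Galnt16 was 7.18%, 4.56% and 4.67% of the sum in the CD34- libraries and 21.1%, 26.0% and 32.5% in the CD34+ libraries. Galnt10 was 19.6% ± 2.52 of the sum in CD34- and 9.95% ± 2.54 in CD34+ libraries, again without overlap. Galnt1 held 24.1% ± 4.68 and 22.1% ± 1.60, and Galnt2 held 22.8% ± 4.79 and 16% ± 4.28, both with overlap between groups, while the Galnt2 share was the higher in CD34- within each tumor. Without Galnt16 the members summed to 125 ± 22.8 CPM per kilobase in CD34- and 108 ± 16.2 in CD34+ libraries, higher in CD34- within each tumor. The ratio of Galnt16 to Galnt10 per kilobase was 0.319, 0.254 and 0.254 in the CD34- libraries and 1.65, 2.84 and 4.11 in the CD34+ libraries, so that the more abundant of this pair changed between the fractions in every tumor. These shares were built from the contrast that chose the members and carry no test.

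**Figure D3:**
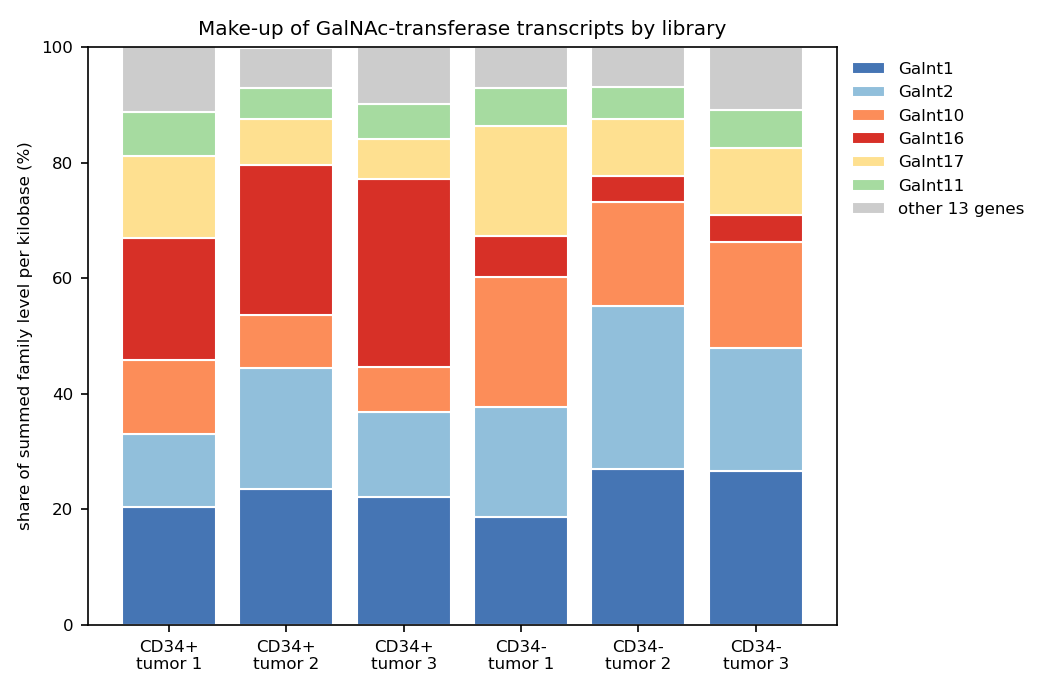
Share (%) of each Galnt gene in the summed CPM per kilobase of 19 Galnt genes, by library, with the genes outside the 6 shown in grey. Galnt16 (red) takes 21.1% to 32.5% of the bar in CD34+ and 4.56% to 7.18% in CD34- libraries, and Galnt10 (orange) is the wider band in CD34- libraries.

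Of the other 9 Galnt genes, 5 passed the filter. Galnt17 was the only abundant one, at 110, 62.2 and 86.7 CPM in the CD34- libraries and 91.1, 64.0 and 55.3 CPM in the CD34+ libraries, a log2 fold change of 0.32 ± 0.26 (limma-voom adjusted p = 0.618). Galnt15 was at 2.72, 0.443 and 3.44 CPM in the CD34- libraries and 14.7, 1.81 and 6.92 CPM in the CD34+ libraries. The tumors differed widely, so that the groups overlapped while each tumor had the lower level in its CD34- fraction. Its change was -1.05 ± 1.04 (adjusted p = 0.684) and, with the block, -1.85 ± 0.47 (adjusted p = 0.0419). That call was lost with edgeR, after thinning, and without tumor 1 (-1.23) or tumor 2 (-1.84). Galnt18 was at 1.51, 2.52 and 3.00 CPM against 3.34, 3.62 and 11.8 CPM, without overlap, and was not called (-1.13 ± 0.60, adjusted p = 0.434, and with the block -1.30 ± 0.46, adjusted p = 0.127). Galnt5 (-0.85 ± 0.72, adjusted p = 0.631) and Galnt13 (-2.43 ± 1.69, adjusted p = 0.550, at most 25 counts in a library) were not called either. Galnt9, Galnt14 and Galntl6 had at most 23 counts in a library, and Galntl5 had 0 in all 6 libraries.

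The 8 lists of related genes held 89 tested genes. Without the block, limma-voom called 1 of them, Cd34, the sorted marker itself (31 had an unadjusted p under 0.05, and edgeR called 0). With the block, 25 were called, 10 higher and 15 lower in CD34- CAFs, which is 28.1% of the lists beside 8.57% of all genes, given as a description. The values below are from the fit with the block, with the adjusted p without it after each.

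The genes that act on the first GalNAc moved in different directions. C1galt1, which builds core 1, was at 13.5, 13.5 and 21.2 CPM in the CD34- libraries and 36.0, 35.4 and 45.6 CPM in the CD34+ libraries. It was lower in CD34- CAFs of every tumor (-1.29 ± 0.18, adjusted p = 0.00337, and 0.0735 without the block). Its chaperone gene C1galt1c1 was not called (-0.35 without the block). Gcnt4, a core 2 branching enzyme, was higher (1.25 ± 0.25, adjusted p = 0.0162, and 0.166 without the block), a call that edgeR with the block did not make. These were the called genes among 5 tested for core extension, whose median log2 fold change was -0.215 (-0.347 without the block).

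Of 8 tested genes for sialylation, 2 were called. St3gal1, which caps core 1 with sialic acid, was at 51.1, 53.1 and 78.0 CPM in the CD34- libraries and 105, 131 and 218 CPM in the CD34+ libraries (-1.29 ± 0.14, adjusted p = 0.00122, and 0.112 without the block). St6galnac4, which adds a sialic acid to the GalNAc of sialylated core 1, was higher (0.86 ± 0.20, adjusted p = 0.0284, and 0.303 without the block). Its call was lost without tumor 1 (0.807) or tumor 2 (1.08). The median of the list was 0.214 (0.420 without the block).

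Among 16 genes of nucleotide sugar supply, 1 was higher and 2 were lower. Uap1, which makes UDP-GlcNAc, the precursor of the UDP-GalNAc that all GalNAc-Ts use, was at 131, 232 and 160 CPM in the CD34- libraries and 353, 623 and 582 CPM in the CD34+ libraries. The groups did not overlap (-1.57 ± 0.14, adjusted p = 0.000451, and 0.0790 without the block). Gnpnat1, an acetyltransferase of the hexosamine pathway, was lower (-1.07 ± 0.28, adjusted p = 0.0443, and 0.193 without the block). Its value shrank to -0.65 without tumor 3, and edgeR with the block did not call it. Uap1l1, a relative of Uap1, was higher (0.72 ± 0.17, adjusted p = 0.0313, and 0.230 without the block), but not without tumor 1 (0.685) or tumor 2 (0.611), and not by edgeR with the block. The median of the list was -0.106 (-0.319 without the block).

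Of 16 tested mucins and proteins with mucin-like parts, 2 were higher and 4 lower. Cd34 was lower by construction of the sort. Prg4, the mucin-like lubricin, was at 26.8, 56.3 and 64.6 CPM in the CD34- libraries and 98.0, 556 and 251 CPM in the CD34+ libraries (-2.45 ± 0.26, adjusted p = 0.00103, and 0.143 without the block). Cd44, the hyaluronan receptor (-0.81 ± 0.14, adjusted p = 0.00853, and 0.169 without the block), and Cd248, the sialomucin endosialin (-0.75 ± 0.17, adjusted p = 0.0247, and 0.440 without the block), were also lower, the latter not by edgeR with the block. Mcam, an adhesion molecule also called MUC18, was at 45.6, 37.7 and 34.6 CPM in the CD34- libraries and 16.4, 8.57 and 3.99 CPM in the CD34+ libraries (2.15 ± 0.28, adjusted p = 0.00252, and 0.0578 without the block). Sdc1, the proteoglycan syndecan, was higher as well (0.80 ± 0.13, adjusted p = 0.00720, and 0.257 without the block). Mcam and Sdc1 are not mucins by structure. The paper uses Mcam as a pericyte marker. Of the pericyte markers above, Rgs5, Cspg4 and Notch3 were also higher in CD34- CAFs, while Kcnj8 and Abcc9 were lower. The part of pericytes in the value of Mcam was not tested. The median of the list was -0.139 (-0.183 without the block).

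Of 9 tested proteins described as GalNAc-T substrates, 2 were higher and 2 lower. Lrp1, of the LDL receptor family (0.74 ± 0.13, adjusted p = 0.0107, and 0.184 without the block), and the receptor Notch1 (1.01 ± 0.17, adjusted p = 0.00710, and 0.176 without the block) were higher in CD34- CAFs. Vldlr, a further LDL receptor relative, was lower (-1.33 ± 0.20, adjusted p = 0.00455, and 0.144 without the block). These 3 are described for Galnt11, whose own level overlapped between the groups. Fn1, the fibronectin described for Galnt6, was lower (-0.80 ± 0.17, adjusted p = 0.0182, and 0.320 without the block), but not without tumor 2 (-0.716), and edgeR with the block called neither Fn1 nor Lrp1. The median of the list was 0.640 (0.385 without the block).

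**Figure D4:**
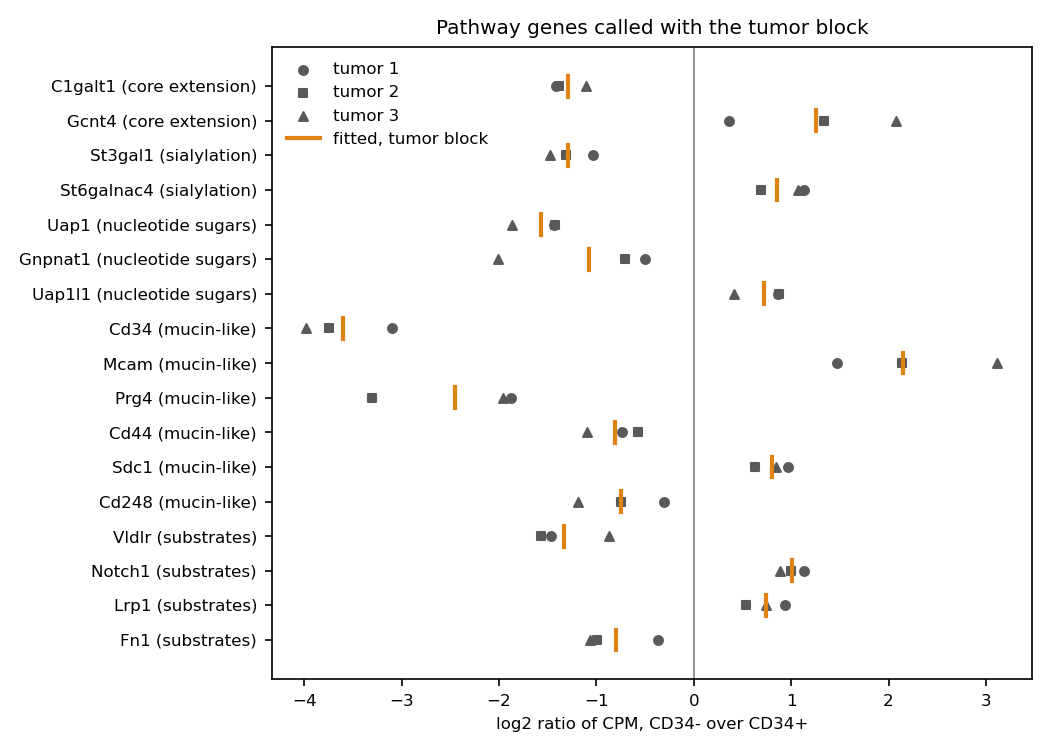
Log2 ratio of CPM, CD34- over CD34+, within tumors 1 (circle), 2 (square) and 3 (triangle) for the named genes of the O-glycan, nucleotide sugar, mucin-like and substrate lists, with the value fitted with the tumor block as an orange line. Every gene plotted has all 3 tumors on the same side of 0, from Cd34 at -3.60 to Mcam at 2.15 (fitted). The genes were chosen because they were called, so this agreement is no separate result. Among all genes tested, 45.9% moved the same way in all 3 tumors.

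Genes of other glycosylation pathways were read for comparison. Of 17 genes that start other kinds of O-glycan, 2 were lower and 0 higher. These were Tmtc2, which acts in O-mannosylation (-1.49 ± 0.31, adjusted p = 0.0202, and 0.184 without the block), and Poglut3, an O-glucosyltransferase (-0.68 ± 0.15, adjusted p = 0.0266, and 0.185 without the block), and edgeR with the block called neither. Of 13 genes of N-glycan trimming and branching, 3 were higher and 2 lower. Man1a, a Golgi mannosidase, was lower (-1.01 ± 0.13, adjusted p = 0.00283, and 0.164 without the block), and Mgat3, which adds the bisecting GlcNAc, was higher (1.27 ± 0.25, adjusted p = 0.0144, and 0.166 without the block), the latter not by edgeR with the block. Man2a1 (-0.64, adjusted p = 0.0174, and 0.177 without the block) was lower. Man1c1 (0.66, adjusted p = 0.0172, and 0.152 without the block) and Man2a2 (0.51, adjusted p = 0.0495, and 0.233 without the block) were higher. The calls of Man2a1, Man1c1 and Man2a2 ended without tumor 2 (-0.559, 0.725 and 0.613) and, for Man2a2, also without tumor 1 (0.506) or tumor 3 (0.382). edgeR with the block called neither Man2a1 nor Man2a2. The medians of these lists were -0.155 and 0.140 (-0.0901 and 0.141 without the block), beside -0.00994 (-0.0278) over all genes tested.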

How the data were processed

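RNA was measured in 6 libraries, the CD34- and CD34+ fractions of GFP+ CAFs from 3 tumors, prepared with the TruSeq RNA v2 protocol. The authors aligned reads to GRCm38/mm10 and deposited raw counts per gene made with featureCounts, with no normalization; strand and multi-mapping settings are not given in the sources used here. Group and tumor came from the sample titles.

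Counts were filtered with filterByExpr (minimum count 10), scaled by TMM and compared with voom and limma (R 4.3.3, limma 3.58.1, edgeR 4.0.16), two-sided, with Benjamini-Hochberg adjustment over 14855 genes at 0.05. The study's methods state no tumor term, so fits without and with the tumor as a replicate block are given. Without the block 3 genes were called higher in CD34- CAFs, and with it 642. The paper reports more genes than those 3 as upregulated in both CD34- CAFs and tumors. The fit without the block is therefore not the study's own list of calls, and the reason for the gap was not tested. The tumor number pairs libraries because both fractions came from the same tumor. Deviations from group means correlated at 0.396, 0.399 and 0.221 within tumors 1, 2 and 3, and at -0.0968 to -0.216 between them. DESeq2 1.42.0, edgeR, other scalings and filters, quality weights and left-out libraries were alternatives; fits on genes with symbols and on thinned counts were added after seeing the data. Fits were also run on simulated data with changes larger than most of those given here, which cannot speak for calls of smaller changes.

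The members and gene lists were chosen with earlier results of these data known. Named were all members, all other Galnt genes and, from each list, at most 6 genes with the smallest p among those called in either fit. Positions and promoters are from RefSeq (GRCm38.p6), exon counts and coding lengths from GENCODE M21. Separate tumors are the replicates, and counting intervals cover counting error only.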

Additional observations from a re-analysis of the deposited data

How the results depend on the processing

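Over all genes, 18 were called without the replicate block (16.7% of them higher in CD34-) and 1273 with it (50.4% higher); pairing libraries by tumor added the call of Galnt10 and changed no other member call. The counts were 9 with edgeR, 698 with DESeq2, 32 with library size only and 161 with quality weights, and with the block 575 with edgeR, 1733 with DESeq2 and 1028 after thinning. Of the 89 list genes, 25 were called with the block, 0 with edgeR, 14 with DESeq2, 2 with library size only and 3 with quality weights, and with the block 13 with edgeR, 32 with DESeq2 and 20 after thinning, against 1. One member, Galnt10, was called higher with each block fit on all libraries and with DESeq2 (1), against 0. Leaving out a library or a tumor gave 0 to 2019 genes (0 to 34 without 1 library, 0 to 86 without a tumor, 851 to 2019 without a tumor under the block; 1134 without tumor 1), 0 to 29 list genes (0 to 4 without the block), 0 to 1 members called lower and 0 to 1 called higher. Thinning with the block lost the calls of Gnpnat1, Man2a2, Poglut3 and Uap1l1, and low counts limit Galnt3 and Galnt6 most.

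The uncalled sign of some members turned. Galnt6 (-0.63) was at 0.339 with edgeR and 0.473 with DESeq2 under the block, at 0.448 and 0.328 after thinning without and with it, and over all left-out libraries at -1.62 to 1.07, turning without CD34- library 1 (0.217), CD34+ library 2 (0.858) or tumor 2 (0.931; 1.07 with the block). Galnt4 (0.03) was at -0.214 with quality weights and, over single left-out libraries, at -0.307 to 0.292, turning at -0.307, -0.0201, -0.288 and -0.249 without CD34- library 3, CD34+ library 2, tumor 3, and tumor 3 with the block. Galnt1 (-0.08) ranged from -0.247 to 0.156, turning at 0.156 without CD34- library 1 and 0.0133 without CD34+ library 2, and Galnt7 (0.36) at -0.0209 without tumor 3 (-0.0368 with the block). Beyond the libraries left out, the cause was not tested.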
